A study of Mus musculus with 15 samples.

Results

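The 10 genes described here control exit from G1: 7 inhibitors of cyclin-dependent kinases (CDKs) and the 3 D cyclins. They were taken as the rows whose symbol was Cdkn1a, Cdkn1b, Cdkn1c, Cdkn2a, Cdkn2b, Cdkn2c, Cdkn2d, Ccnd1, Ccnd2 or Ccnd3, and all 10 were found among the 27179 genes of each of the 4 tables. The cells were iRECs, mouse induced renal tubular epithelial cells, which are made by reprogramming fibroblasts with transcription factors. RNA of 5 culture conditions was sequenced, in 3 libraries per condition, and the series asked how 4 microenvironments change the transcriptome relative to flat culture. The control, called 2D, was grown on plates. Matrigel (a basement membrane extract), fibrin and collagen I were the hand-dispensed gels of the 3D cultures. The fourth 3D group, called Printed, was bioprinted with an inkjet device in fibrin and collagen I, and the name of its table mentions collagen but not fibrin. All 5 conditions received Renal Epithelial Growth Medium and were collected on day 7.

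The 3 replicates of a condition were passages 35, 48 and 53 of 1 cell line, with 1 library of each passage in every condition. Replicate and passage therefore cannot be told apart. The replicates are cultures of 1 line and not separate animals, so the p-values measure the spread between these cultures. The data used here were the authors' 4 deposited tables, 1 for each microenvironment against 2D, with 0 columns of values per library. Depth and values per library were not analysed here, and no interval for counting error is given. Base means summed to between 42789952 and 45388657 normalized reads per table. Where the base mean was at least 100, log2 fold changes had a median standard error of 0.19 to 0.23. The libraries are of bulk RNA, in which fewer cells of a type and less RNA per cell cannot be told apart.

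Passage from G1 into S phase is set by the balance between D cyclins and CDK inhibitors. D cyclins bind CDK4 and CDK6, and the active kinases phosphorylate the retinoblastoma protein RB, which releases E2F transcription factors. The INK4 proteins, encoded by the Cdkn2 genes, bind CDK4 and CDK6 and keep them from the D cyclins, while the CIP/KIP proteins, encoded by the Cdkn1 genes, block complexes of cyclin E or A with CDK2. In the kidney tubule p21, the product of Cdkn1a, is known from injury and senescence, and p16 INK4a accumulates in ageing kidney and in cells kept in culture for many passages.

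The tubular label was checked on marker genes. In 2D the implied level, a mean of normalized reads explained further on, was 54283 for the kidney cadherin Cdh16, 22679 for Pax8, 19467 for the endocytic receptor Lrp2 and 10981 for Hnf4a. The keratin Krt18 stood at 18746, against 303 for Krt8 and 23.9 for Krt7. Of the mesenchymal markers, Vim stood at 5918 and Twist1 at 887, while Col1a1 was at 240, Dcn at 1.64 and Thy1 at 0.319. The summed level of the 9 fibroblast and mesenchyme markers was 7145 in 2D, 5295 in Matrigel, 8462 in fibrin, 7335 in collagen I and 7564 in the Printed cultures. Vim supplied most of that sum, 5918 in 2D and 7159 in fibrin. The lowest implied level in it was below 0 in each microenvironment, down to -23.3 in collagen I. The summed level of the 12 tubule and epithelial markers ran from 143180 in fibrin to 205235 in Printed, with 170492 in 2D. The leukocyte gene Ptprc was at 1.34, the endothelial gene Kdr at 0.632 and the podocyte gene Wt1 at 0.269, and Cd3e and Nphs1 had a base mean of 0 in all 4 tables. Calls among the tubule and epithelial markers numbered 3 higher in Matrigel, 1 lower in fibrin, 2 lower in collagen I and 1 higher in Printed. Of all genes tested 4.03% were higher in Matrigel, 3.11% lower in fibrin, 4.65% lower in collagen I and 2.51% higher in Printed. Of the fibroblast markers, the collagen gene Col1a1 fell by 1.49 in fibrin and 2.35 in collagen I, and Pdgfra by 1.19 in fibrin, in the authors' deposited tables. In Matrigel and Printed 0 of the 9 were called, with 2 and 1 lower at an unadjusted p under 0.05, and 0 endothelial or podocyte markers reached either threshold. In the deposited tables of the authors 1 of the 5 immune markers passed in any comparison, the lysosomal gene Cd68, at a log2 fold change of 1.60 ± 0.23 (standard error, adjusted p = 2.13e-09) in Printed. The part of these markers in the results on the 10 genes was not tested.

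Where these genes start, and how much sequence they share, bears on what their rows count. RefSeq promoter windows of 300 bases (250 before to 50 after a transcription start, GRCm38.p6) were found for 7 of the 10 genes, in 11 windows. 5 motifs were searched as exact letters on both strands: the cyclic AMP response element TGACGTCA, the E2F site TTTNGCGC, the AP-1 site TGANTCA, the GC box GGGCGG bound by Sp1, and the E-box CACGTG. No motif contains the letters of another. Over all 32851 windows of the same length the share with a match was 1.79%, 1.38%, 7.81%, 35.7% and 7.15%, in that order. Ccnd1, Ccnd2 and Cdkn1c had no window, so their promoters were not searched. In the windows of the 7 other genes a GC box was present in 9 of 11, a cyclic AMP response element, an E2F site and an E-box in 1 each, and an AP-1 site in 0. A match is a run of letters and not a site shown to be used.

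Ccnd3 is shown because it passed the test in 1 comparison and has windows. Its 2 starts are far apart, on the plus strand at chr17:47504801-47505100 and chr17:47593217-47593516, and each window holds 2 GC boxes (capitals, also where the reverse complement is read).
Ccnd3, upstream start: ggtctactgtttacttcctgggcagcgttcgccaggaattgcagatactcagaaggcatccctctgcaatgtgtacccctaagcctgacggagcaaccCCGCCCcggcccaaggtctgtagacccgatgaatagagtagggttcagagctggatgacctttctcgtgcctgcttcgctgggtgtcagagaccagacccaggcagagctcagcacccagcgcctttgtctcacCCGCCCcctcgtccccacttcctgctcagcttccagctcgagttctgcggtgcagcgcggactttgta
Ccnd3, downstream start: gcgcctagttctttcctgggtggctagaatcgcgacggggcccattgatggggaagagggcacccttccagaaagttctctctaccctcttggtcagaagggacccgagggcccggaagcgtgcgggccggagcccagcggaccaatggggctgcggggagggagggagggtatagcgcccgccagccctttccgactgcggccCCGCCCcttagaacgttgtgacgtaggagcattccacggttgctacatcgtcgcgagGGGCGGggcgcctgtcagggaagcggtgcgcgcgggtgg

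Cdkn2a is shown because 1 row counts transcripts from both of its starts, on the minus strand. The window at chr4:89294570-89294869 lies at the first exon used for ARF, the protein that stabilises p53, has 77% G and C and holds 3 GC boxes. The window at chr4:89282143-89282442 lies at the first exon used for p16 INK4a and holds an E2F site and a GC box (capitals in both). The median share of G and C over all windows was 52.7%.
Cdkn2a, ARF start: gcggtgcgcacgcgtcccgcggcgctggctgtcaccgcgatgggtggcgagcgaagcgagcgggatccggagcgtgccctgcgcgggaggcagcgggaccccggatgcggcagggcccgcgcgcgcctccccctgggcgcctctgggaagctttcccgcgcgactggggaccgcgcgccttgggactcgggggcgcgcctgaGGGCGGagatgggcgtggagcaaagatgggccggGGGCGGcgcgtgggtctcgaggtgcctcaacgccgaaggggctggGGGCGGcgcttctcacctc
Cdkn2a, INK4a start: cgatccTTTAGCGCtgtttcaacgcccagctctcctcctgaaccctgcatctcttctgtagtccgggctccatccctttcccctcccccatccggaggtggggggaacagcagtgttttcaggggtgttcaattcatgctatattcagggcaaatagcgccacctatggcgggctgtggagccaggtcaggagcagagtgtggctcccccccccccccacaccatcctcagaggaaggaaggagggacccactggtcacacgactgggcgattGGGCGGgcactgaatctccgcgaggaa

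Cdkn2b, the neighbour of Cdkn2a, is shown because it held the single cyclic AMP response element of the 11 windows. Its window is chr4:89310983-89311282 on the minus strand, and a GC box follows the element (both in capitals).
Cdkn2b: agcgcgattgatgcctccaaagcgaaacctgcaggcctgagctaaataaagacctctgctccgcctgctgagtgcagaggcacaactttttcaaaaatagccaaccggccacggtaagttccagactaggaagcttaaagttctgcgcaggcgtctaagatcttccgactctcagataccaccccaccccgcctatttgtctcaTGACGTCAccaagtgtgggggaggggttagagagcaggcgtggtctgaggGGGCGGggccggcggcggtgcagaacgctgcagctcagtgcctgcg

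Reads that fit 2 members equally well would blur their rows, so the longest run of identical bases was taken from the 40 transcripts of the 10 genes (GENCODE M21). Over the 45 pairs it ran from 10 to 23 bases, with a median of 12. The longest run in coding exons was that of Cdkn2a and Cdkn2b (4:89276855-89276877 and 4:89307184-89307206), and the next was that of Ccnd1 and Ccnd2 (7:144939542-144939561 and 6:127150628-127150647). Cdkn1a and Cdkn1b shared a run of T outside the coding sequence that was as long as the first.
Cdkn2a and Cdkn2b: cgggaaggcttcctggacacgct
Ccnd1 and Ccnd2: ttcaagtgcgtgcagaagga

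Of the 10 genes, 5 overlap another annotated gene on the opposite strand, and the strand setting of the counting is not given in the sources used here. Ccnd1 overlaps LTO1, Ccnd3 overlaps Bysl, Ccnd2 overlaps 9330179D12Rik and Gm43126, and Cdkn1a and Cdkn1c overlap a further non-coding gene each. Without strand, reads from the 2 genes of such a pair cannot be told apart where their exons overlap. LTO1, listed as Oraov1, had base means of 971 to 1062 in the authors' deposited tables, and Bysl of 2650 to 3205. The adjusted p of both stayed at or above 0.405 in the 4 deposited tables of the authors. The highest base mean of 9330179D12Rik was 12.3 in the authors' deposited tables.

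Levels of the 10 genes were compared across conditions through the base mean, the average of normalized reads over the 6 libraries of a comparison. With 3 libraries on each side, a base mean and a fold change that is the ratio of group means give the mean of each group. That mean is here called the implied level. Not every gene met this condition: Cxcl5, read below, did not. For the 10 genes the fold changes from implied levels lay within 1 standard error of the deposited ones. The 4 tables were normalized separately, so they were put on 1 scale through the level in 2D that they share. That level differed between tables by 0.556% for Ccnd3 to 11.0% for Cdkn1c. Each level of a 3D culture is 2 times the base mean minus the 2D level of the other tables, so it does not use the deposited fold change of its own table.

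Per kilobase of the longest coding transcript, the order in 2D began with Cdkn1a at 14311 normalized reads, Ccnd1 at 5173 and Ccnd3 at 2542. Cdkn2b at 905, Ccnd2 at 871, Cdkn1b at 734, Cdkn2d at 512 and Cdkn2a at 405 formed the middle. Cdkn2c at 111 and Cdkn1c at 46.4 were lowest. Of the 11004 genes compared in this way, 1.49% stood above Cdkn1a in 2D, 5.06% above Ccnd1, 60.2% above Cdkn2a and 97.0% above Cdkn1c. The length chosen matters for Ccnd3, which has many transcripts: over the union of its exons its level in 2D was 612 per kilobase, next to 586 for Ccnd2.

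**Figure D1:**
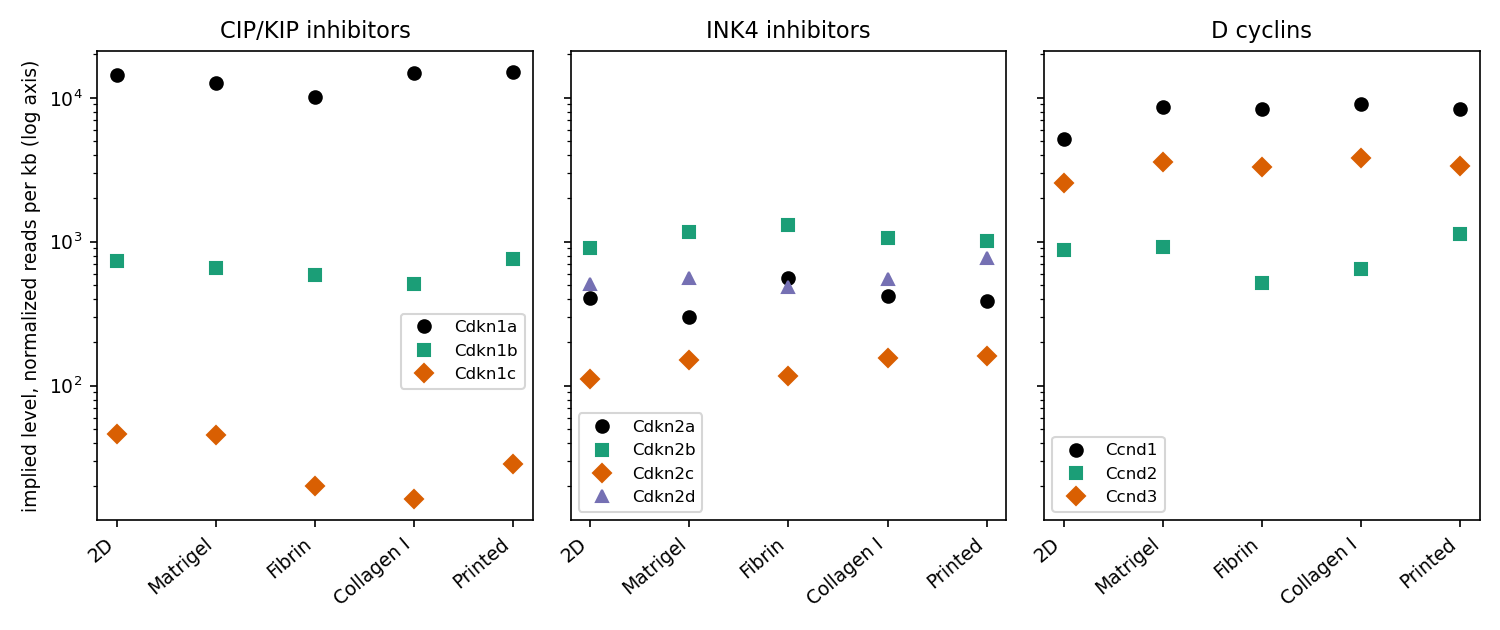
Implied level of each gene in normalized reads per kilobase (log axis) in 2D and the 4 microenvironments, with 1 point per gene and condition and no error bar, in panels for CIP/KIP inhibitors, INK4 inhibitors and D cyclins. Cdkn1a stays above the other inhibitors in all 5 conditions, Ccnd1 and Ccnd3 lie higher in every microenvironment than in 2D, and Ccnd2 is lowest in fibrin.

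Across the 4 comparisons the authors' two-sided Wald test (DESeq2, Benjamini-Hochberg adjusted p under 0.05) called 5 of the 40 values of these genes, 3 higher and 2 lower than 2D. In Matrigel 1 of 10 was higher, and 4.03% of all genes tested were called higher and 2.32% lower. In fibrin 1 of 10 was lower, against 5.19% of all genes higher and 3.11% lower. In collagen I 2 of 10 were higher and 1 lower, against 6.51% and 4.65%. In Printed 0 of 10 were called, with 3 at an unadjusted p under 0.05, against 2.51% of all genes higher and 0.675% lower. Over all comparisons 14 of the 40 values had an unadjusted p under 0.05. The median log2 fold change of the 10 genes was 0.10 in Matrigel, 0.05 in fibrin, 0.09 in collagen I and 0.25 in Printed, while that of all genes tested lay between -0.00 and 0.01. The 4 comparisons share the same 2D libraries, so they are not independent of each other. All 5 calls were lost when the Wald statistics were rescaled to the spread of all genes, which was 1.11 to 1.57 in units of a standard normal.

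**Figure D2:**
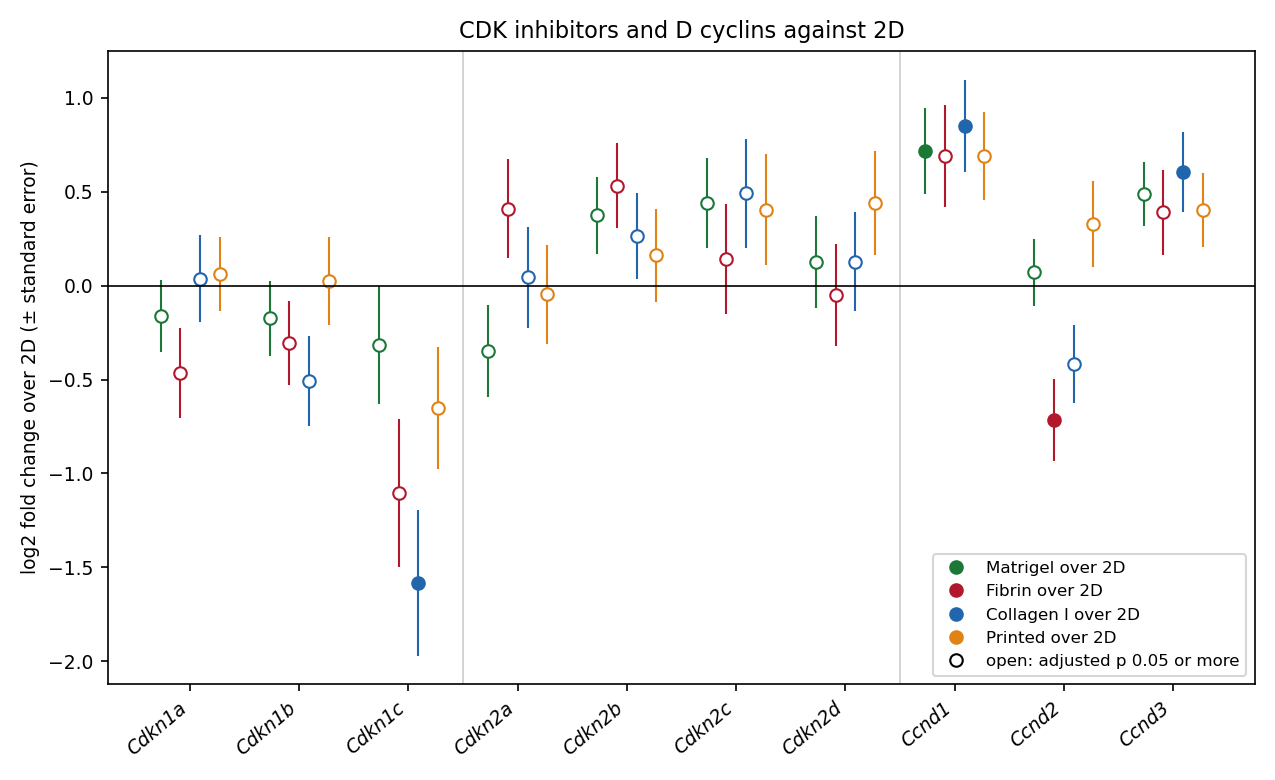
Deposited log2 fold change over 2D (vertical axis, bars ± 1 standard error) of the 10 genes in 4 microenvironments, filled where the adjusted p was under 0.05. The filled points are Ccnd1 in Matrigel and collagen I, Ccnd3 in collagen I, Ccnd2 in fibrin and Cdkn1c in collagen I.

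Of the D cyclins, Ccnd1 and Ccnd3 were higher in every microenvironment than in 2D by value, and Ccnd2 was lower in fibrin. Together the 3 genes gave 3 higher and 1 lower call in 12 values, with 9 at an unadjusted p under 0.05. Their levels per kilobase summed to 8586 in 2D, 13063 in Matrigel, 12145 in fibrin, 13585 in collagen I and 12888 in Printed. The sum is carried by Ccnd1, whose share was 60.3% in 2D and 65.0% to 68.4% in the 4 microenvironments. Sums and shares here and below use the longest coding transcript and depend on that choice. Over the union of exons the levels per kilobase in 2D were 4109 for Ccnd1, 612 for Ccnd3 and 586 for Ccnd2.

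Ccnd1 encodes cyclin D1, the D cyclin that responds to growth factors and adhesion (chromosome 7, 144929931 to 144939925, minus strand). Its implied level was 19348 normalized reads in 2D, 32046 in Matrigel, 31082 in fibrin, 34023 in collagen I and 31333 in Printed. All 4 microenvironments lay above 2D and close to each other. It rose in Matrigel by a log2 fold change of 0.72 ± 0.23 (standard error, adjusted p = 0.0330) and in collagen I by 0.85 ± 0.25 (adjusted p = 0.00938) in the authors' deposited tables. The fold in collagen I was 1.80, with a 95% interval of 1.29 to 2.52. The values of the other comparisons were of like size but missed the threshold, at 0.69 ± 0.27 in fibrin (adjusted p = 0.0957) and 0.69 ± 0.23 in Printed (adjusted p = 0.0817) in the authors' deposited tables. The 4 values span 0.16 on the log2 scale, less than 1 standard error of any of them.

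Ccnd3 encodes cyclin D3, the form often retained in differentiated tissue (chromosome 17, 47505051 to 47599691, plus strand). Its level was 5371 in 2D, 7550 in Matrigel, 7017 in fibrin, 8117 in collagen I and 7137 in Printed. Fibrin and Printed were next to each other in that order, at a difference in log2 fold change of -0.01 (95% interval -0.60 to 0.58). It rose in collagen I, where the authors' deposited table has a log2 fold change of 0.60 ± 0.21 (adjusted p = 0.0442). That call was lost when p-values were adjusted over all 19669 genes with a p-value (adjusted p = 0.0618) and when fold changes were recentred on the median gene (adjusted p = 0.0663). Values of 0.49 ± 0.17 in Matrigel (adjusted p = 0.0641), 0.39 ± 0.23 in fibrin (adjusted p = 0.353) and 0.40 ± 0.20 in Printed (adjusted p = 0.402) stand in the authors' deposited tables. Bysl, on the other strand of the locus, had 0.29 ± 0.24 in collagen I in the authors' deposited table, at a base mean of 2950 against 6527 for Ccnd3.

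Ccnd2 encodes cyclin D2 (chromosome 6, 127125162 to 127152193, minus strand), and it differed most among the D cyclins. Its level was 3248 in fibrin and 4089 in collagen I, below 2D at 5514, and 5832 in Matrigel and 7172 in Printed, above it. It fell in fibrin, with a log2 fold change of -0.72 ± 0.22 (adjusted p = 0.0175), a fold of 0.609, in the authors' deposited table. The other values were -0.42 ± 0.21 in collagen I (adjusted p = 0.197), 0.07 ± 0.18 in Matrigel (adjusted p = 0.925) and 0.33 ± 0.23 in Printed (adjusted p = 0.682) in the authors' deposited tables. Per kilobase Ccnd2 made up 10.1% of the D cyclin total in 2D, 7.05% in Matrigel, 4.23% in fibrin, 4.76% in collagen I and 8.79% in Printed. In fibrin Ccnd1 and Ccnd2 therefore had values of similar size and opposite sign, though that of Ccnd1 did not pass.

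The CIP/KIP inhibitors gave 1 lower call in 12 values, Cdkn1c in collagen I, with 4 at an unadjusted p under 0.05. Their median log2 fold change over the 4 comparisons was -0.31. Cdkn1a supplied 94.3% to 96.6% of their summed level per kilobase, so the sum followed it: 15091 in 2D, 13330 in Matrigel, 10687 in fibrin, 15395 in collagen I and 15870 in Printed.

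Cdkn1c encodes p57, which is expressed from the maternal allele (chromosome 7, 143458339 to 143461050, minus strand), and it had the lowest level of the 10 genes in every condition. Its level was 88.2 normalized reads in 2D, 86.5 in Matrigel, 54.2 in Printed, 38.3 in fibrin and 31.1 in collagen I. The order therefore ran from 2D and Matrigel, close together, down to collagen I. It fell in collagen I, where the log2 fold change was -1.58 ± 0.39 (adjusted p = 0.00126) in the authors' deposited table. The fold was 0.334, with a 95% interval of 0.197 to 0.565. The value in fibrin was -1.10 ± 0.39 (adjusted p = 0.0557), in Printed -0.65 ± 0.32 (adjusted p = 0.410) and in Matrigel -0.32 ± 0.31 (adjusted p = 0.728) in the authors' deposited tables. From the implied levels the log2 ratios to 2D were -1.49 in collagen I, -1.21 in fibrin, -0.71 in Printed and -0.02 in Matrigel, each within 1 standard error of the deposited value. Its base mean of 57.4 to 87.8 in the authors' deposited tables makes it the least precise of the 10, with the largest standard errors.

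Cdkn1a encodes p21, the main inhibitor induced by p53 (chromosome 17, 29090976 to 29100727, plus strand). Its level was 29766 in 2D, 26275 in Matrigel, 20958 in fibrin, 30937 in collagen I and 31369 in Printed. In fibrin it was lowest, but the log2 fold change of -0.47 ± 0.24 had an adjusted p of 0.273 in the authors' deposited table. Its other values of -0.16 ± 0.19 in Matrigel, 0.04 ± 0.23 in collagen I and 0.06 ± 0.20 in Printed had adjusted p of 0.787 or more in the authors' deposited tables. The 95% intervals of the fold were 0.689 to 1.16 in Matrigel, 0.521 to 1.01 in fibrin, 0.749 to 1.40 in collagen I and 0.798 to 1.36 in Printed.

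Cdkn1b encodes p27, which is controlled largely through its degradation (chromosome 6, 134920401 to 134925513, plus strand). Its level was 3339 in 2D, 2970 in Matrigel, 2691 in fibrin, 2301 in collagen I and 3462 in Printed. Collagen I was lowest, with a log2 fold change of -0.51 ± 0.24 (adjusted p = 0.168) in the authors' deposited table, and a fold interval of 0.508 to 0.971. The values in Matrigel, fibrin and Printed were -0.17 ± 0.20, -0.31 ± 0.22 and 0.03 ± 0.23, with adjusted p of 0.511 or more, in the authors' deposited tables.

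Of the INK4 inhibitors 0 of 16 values were called, with 1 at an unadjusted p under 0.05, and the smallest adjusted p was 0.143. Their median log2 fold change was 0.21, and 13 of the 16 values were above 0. Levels per kilobase summed to 1933 in 2D, 2185 in Matrigel, 2473 in fibrin, 2189 in collagen I and 2336 in Printed. D cyclins per kilobase stood at 4.44 times this sum in 2D, 5.98 in Matrigel, 4.91 in fibrin, 6.21 in collagen I and 5.52 in Printed. Against all 7 inhibitors, of which Cdkn1a makes up most, the ratio was 0.504 in 2D, 0.842 in Matrigel, 0.923 in fibrin, 0.773 in collagen I and 0.708 in Printed. Both ratios were lowest in 2D, but fibrin was the lowest microenvironment in the first and the highest in the second. Neither ratio has an error or a test, and both depend on the transcript length chosen.

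Cdkn2a encodes p16 INK4a and ARF, both lost in many immortal lines (chromosome 4, 89274471 to 89294653, minus strand). Its level was 363 in 2D, 269 in Matrigel, 501 in fibrin, 377 in collagen I and 349 in Printed. Its log2 fold changes spanned 0.76, the widest range of a log2 fold change among the INK4 genes. The log2 fold changes were -0.35 ± 0.25 in Matrigel (adjusted p = 0.545) and 0.41 ± 0.26 in fibrin (adjusted p = 0.432) in the authors' deposited tables. Those of 0.04 ± 0.27 in collagen I and -0.05 ± 0.26 in Printed were near 0 in the authors' deposited tables. The row sums both starts shown above, so no value can be given to p16 INK4a or ARF alone, and its levels are means over the 3 passages, not values at each.

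Cdkn2b, which encodes p15 INK4b, an inhibitor induced by TGF-beta, had the highest level of the INK4 genes in every condition (chromosome 4, 89306299 to 89311039, minus strand). Its level was 1258 in 2D, 1626 in Matrigel, 1822 in fibrin, 1471 in collagen I and 1413 in Printed. The value in fibrin, 0.53 ± 0.23, was the one of the INK4 genes with an unadjusted p under 0.05 (p = 0.0198, adjusted p = 0.143) in the authors' deposited table by the Wald test of DESeq2. The other values lay between 0.16 and 0.37 in the authors' deposited tables.

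Cdkn2c encodes p18 INK4c (chromosome 4, 109660876 to 109667189, minus strand), and its level was 274 in 2D, 373 in Matrigel, 288 in fibrin, 382 in collagen I and 399 in Printed. Its log2 fold changes of 0.14 to 0.49 had adjusted p of 0.313 or more in the authors' deposited tables. Cdkn2d encodes p19 INK4d (chromosome 9, 21288410 to 21291407, minus strand). Its level was 729 in 2D, 802 in Matrigel, 691 in fibrin, 790 in collagen I and 1093 in Printed. The value in Printed was 0.44 ± 0.28 (adjusted p = 0.618) in the authors' deposited table, with a fold interval of 0.933 to 1.97. For both genes the intervals of the fold included 1 in all 4 comparisons, and reached 2.09 for Cdkn2c in collagen I.

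To compare microenvironments with each other, 1 log2 fold change over 2D was subtracted from the other, and the standard errors were added as squares. Both values share the 2D libraries, so this overstates the error. Of 60 differences (10 genes, 6 pairs) 0 passed a Benjamini-Hochberg adjusted p under 0.05 over all genes, and 5 had an unadjusted p under 0.05. The share of all genes called was 1.13% for Matrigel and fibrin, 0.478% for Matrigel and collagen I and 0.612% for Matrigel and Printed. It was 0.548% for fibrin and collagen I, 1.4% for fibrin and Printed and 0.89% for collagen I and Printed.

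Ccnd2 gave 3 of the 5. Its value in fibrin was 1.05 lower than in Printed on the log2 scale (difference -1.05 ± 0.32, 95% interval -1.67 to -0.43, adjusted p = 0.0617). With the statistic rescaled to the spread over all genes, 0.919, that difference passed (adjusted p = 0.0185). Its value in Matrigel was 0.79 ± 0.28 above fibrin (adjusted p = 0.224), and in collagen I it differed from Printed by -0.75 ± 0.31 (adjusted p = 0.476). The other differences were Cdkn1c, 1.27 ± 0.50 higher in Matrigel than in collagen I (adjusted p = 0.442), and Cdkn2a, which differed by -0.76 ± 0.36 between Matrigel and fibrin (adjusted p = 0.664). For Ccnd1 the intervals of all 6 differences included 0 and the lowest adjusted p was 0.970. An adjusted p that misses the threshold does not show that levels were alike: for Ccnd1 in Matrigel and fibrin the interval ran from -0.67 to 0.72.

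**Figure D3:**
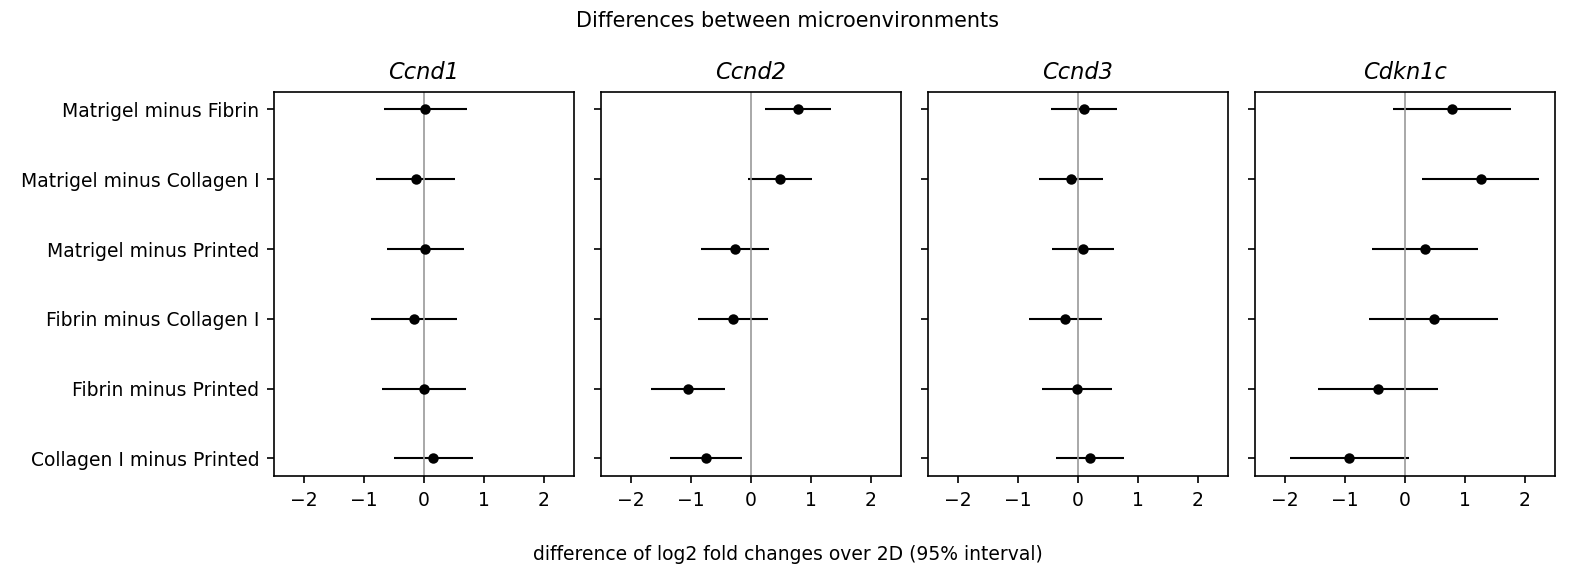
Difference between log2 fold changes over 2D (horizontal axis, bars 95% intervals) for each pair of microenvironments, in panels for Ccnd1, Ccnd2, Ccnd3 and Cdkn1c. The interval of Ccnd2 in fibrin minus Printed, -1.67 to -0.43, lies farthest from 0, and those of Ccnd1 and Ccnd3 all include 0.

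Genes that act with or after the 10 were read from 9 lists, of which the E2F target and S phase genes moved in the largest number. Of 18 such genes 13 were higher in Matrigel, 17 in fibrin, 17 in collagen I and 9 in Printed, and 0 were lower. Their median log2 fold change was 0.69, 1.24, 1.35 and 0.71, in that order, against -0.00, 0.00, 0.01 and 0.01 for all genes tested. Of all genes tested 4.03%, 5.19%, 6.51% and 2.51% were called higher and 2.32%, 3.11%, 4.65% and 0.675% lower, in the same order. These shares belong beside the counts of every list below. In this list, the RB and E2F proteins, the G1 kinases with E and A cyclins, and the degradation machinery, 0 genes were lower at an unadjusted p under 0.05 (DESeq2, Wald test) in any comparison. Rrm2, which makes deoxynucleotides, rose by 1.46 ± 0.18, 1.72 ± 0.24, 2.00 ± 0.26 and 1.29 ± 0.20 in the authors' deposited tables (largest adjusted p = 4.8e-08). Cdc6, which loads the replicative helicase, rose by 1.02 ± 0.23, 1.67 ± 0.29, 1.80 ± 0.30 and 1.15 ± 0.27 in the same order in the authors' deposited tables. Mcm4, a subunit of that helicase, rose by 0.67 ± 0.17, 1.41 ± 0.21, 1.33 ± 0.24 and 0.92 ± 0.20 in the authors' deposited tables. The proliferation antigen Mki67, named after its values were seen, did not pass in any comparison, with values of 0.43 to 0.50 and adjusted p of 0.508 or more in the authors' deposited tables. Calls in the 9 lists are as deposited and were not recounted with Wald statistics rescaled to the spread of all genes. In collagen I that rescaling left Cdkn1c, with a Wald statistic of -4.08, uncalled (adjusted p = 0.253). Genes called there at a smaller statistic, among them Ccna2 (4.05), E2f7 (3.74) and Mcm2 (3.47), would not pass either.

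The partners of the cyclins and inhibitors moved unequally. Among 11 G1 kinases and E and A cyclins 1 was higher in Matrigel, 4 in fibrin, 4 in collagen I and 2 in Printed, and 0 were lower. Ccne1, the E cyclin that activates CDK2 and also a member of the E2F list, rose by 0.79 ± 0.23, 1.34 ± 0.28, 1.46 ± 0.30 and 1.01 ± 0.25 in the authors' deposited tables. Ccne2 rose in fibrin by 1.66 ± 0.33 and in collagen I by 1.93 ± 0.34 in the authors' deposited tables. Ccna2, the A cyclin of S phase, rose in fibrin (1.03 ± 0.27), collagen I (1.13 ± 0.28) and Printed (0.80 ± 0.22) in the authors' deposited tables. Cdk4, the kinase that D cyclins and INK4 proteins compete for, had values between -0.21 and 0.21 and adjusted p of 0.601 or more in the authors' deposited tables. Cdk6 had 0.12 to 0.66 with a lowest adjusted p of 0.111 in Printed in the authors' deposited tables.

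Of 15 RB and E2F proteins 3 were higher in Matrigel, 4 in fibrin, 5 in collagen I and 3 in Printed, with 0 lower. E2f2, an activating E2F, rose by 1.16 ± 0.24, 1.28 ± 0.29, 1.34 ± 0.30 and 0.96 ± 0.28 in the authors' deposited tables. E2f7 and E2f8, repressors that are themselves E2F targets, rose in all 4, by 0.86 to 1.20 and by 0.98 to 1.32, in the authors' deposited tables. Rb1 itself had values of -0.17 to -0.09 with adjusted p of 0.772 or more in the authors' deposited tables.

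The degradation machinery acts on p27, p21 and the D cyclins, and 13 of its 15 listed genes were found. Higher calls numbered 1 in Matrigel, 4 in fibrin, 4 in collagen I and 1 in Printed, with 0 lower. Skp2, the F-box protein that marks p27 for destruction, rose by 0.57 ± 0.17, 0.98 ± 0.22 and 1.07 ± 0.24 in Matrigel, fibrin and collagen I in the authors' deposited tables, and had 0.56 ± 0.21 (adjusted p = 0.151) in Printed. Its cofactor Cks1b rose in fibrin (0.95 ± 0.23) and collagen I (1.02 ± 0.25) in the authors' deposited tables. The 1 call in Printed was Kpna2, a nuclear import factor, so none of the other listed genes passed there. Kpna2 is also counted among the calls in fibrin and collagen I. It rose in fibrin, collagen I and Printed by 0.85 ± 0.23, 1.09 ± 0.24 and 0.68 ± 0.21 in the authors' deposited tables. Ambra1, the receptor that takes D cyclins to the proteasome, had values of -0.25 to 0.16 and adjusted p of 0.520 or more in the authors' deposited tables.

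**Figure D4:**
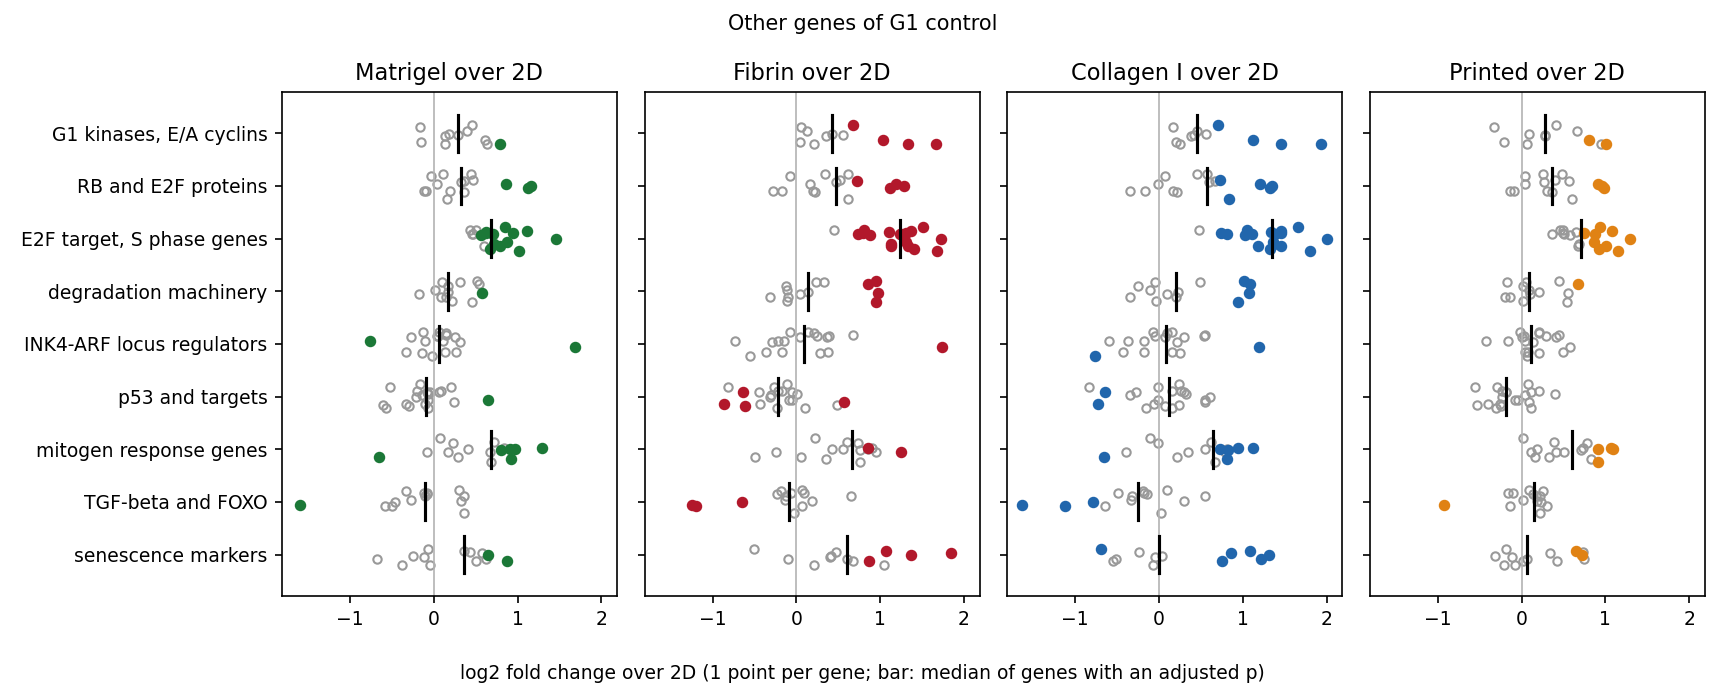
Deposited log2 fold change over 2D (horizontal axis) of single genes in 9 lists, 1 panel per microenvironment, filled where the adjusted p was under 0.05, with a bar at the median of each list. The medians of the E2F target and S phase genes are 0.69, 1.24, 1.35 and 0.71, and those of p53 and its targets lie between -0.22 and 0.12.

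Upstream, the mitogen response genes, which report growth factor signalling to Ccnd1, gave 5 higher and 1 lower call of 16 in Matrigel, 2 and 0 in fibrin, 5 and 1 in collagen I, and 4 and 0 in Printed. Their medians were 0.68, 0.67, 0.65 and 0.60. Dusp6, a phosphatase of ERK, rose in Matrigel by 0.96 ± 0.16 and in Printed by 1.09 ± 0.20 in the authors' deposited tables. Spry4, a feedback inhibitor, rose by 1.29 ± 0.30 in Matrigel, 1.12 ± 0.32 in collagen I and 1.07 ± 0.29 in Printed in the authors' deposited tables. Fos rose in fibrin by 1.24 ± 0.30 in the authors' deposited table. Jun, its partner in AP-1, was the lower call: it fell by 0.66 in Matrigel and by 0.66 in collagen I in the authors' deposited tables. Myc, which acts on Ccnd2 and against Cdkn1a, had -0.39 to 0.11 with adjusted p of 0.397 or more in the authors' deposited tables.

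The p53 list, read beside Cdkn1a, gave 1 higher call of 20 in Matrigel, 1 higher and 3 lower in fibrin, 2 lower in collagen I and 0 in Printed, where 0 also had an unadjusted p under 0.05. Medians were -0.09, -0.22, 0.12 and -0.18. The higher calls, 1 of 20 in Matrigel and in fibrin, are near the shares of all genes called higher, 4.03% and 5.19%. Lower calls stand beside shares of 3.11% in fibrin and 4.65% in collagen I. Trp53 itself rose in fibrin by 0.57 ± 0.20 (adjusted p = 0.0495), while Bbc3, a cell death gene, fell there by 0.87 and in collagen I by 0.72, in the authors' deposited tables. Eda2r fell by 0.62 in fibrin and Perp rose by 0.65 ± 0.19 in Matrigel in the authors' deposited tables. Mdm2, the ligase for p53, had -0.16 to 0.23 with adjusted p of 0.590 or more in the authors' deposited tables.

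Of the regulators of the INK4-ARF locus 19 of 20 were found and 18 had an adjusted p. Id1, a repressor of Cdkn2a transcription, rose in Matrigel by 1.69 ± 0.22, in fibrin by 1.74 ± 0.22 and in collagen I by 1.20 ± 0.24 in the authors' deposited tables. Ets1, an activator of it, fell in Matrigel by 0.76, and Kdm6b, a demethylase of the Polycomb mark, fell in collagen I by 0.76 in the authors' deposited tables. These were the 5 calls of that list, with 0 in Printed (3 higher at an unadjusted p under 0.05), and its medians were 0.06, 0.09, 0.08 and 0.11. Counts of 1 of 18 are near the shares of all genes called. Those were 4.03% higher and 2.32% lower in Matrigel, 5.19% higher in fibrin, and 6.51% higher and 4.65% lower in collagen I. The Polycomb genes Bmi1 and Ezh2 had values of -0.27 to 0.07 and 0.15 to 0.68, and adjusted p of 0.592 or more and 0.0623 or more, in the authors' deposited tables.

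TGF-beta and FOXO regulators, which act on Cdkn2b, Cdkn1a, Cdkn1b and Cdkn1c, gave 1, 3, 3 and 1 lower calls of 14 in Matrigel, fibrin, collagen I and Printed. Higher calls numbered 0 in each, with 1, 1, 1 and 0 genes higher at an unadjusted p under 0.05. Tgfb2, a ligand, fell by 1.60, 1.25, 1.63 and 0.93 in the authors' deposited tables. Klf4 fell by 1.20 in fibrin and 1.12 in collagen I, and Foxo3, an activator of Cdkn1b, by 0.65 and 0.79, in the authors' deposited tables. Fibrin and collagen I were also the 2 conditions in which Cdkn1b, Cdkn1c and Ccnd2 had their lowest levels, and a relation between these values was not tested. Smad3 had -0.03 to 0.36 with adjusted p of 0.280 or more in the authors' deposited tables.

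Senescence markers were read because p21 and p16 INK4a are used as such markers. Of 16 genes 12 or 13 had an adjusted p, and 2 were higher in Matrigel, 4 in fibrin, 5 in collagen I and 2 in Printed, with 1 lower, in collagen I. Medians were 0.36, 0.60, -0.00 and 0.06. The members that moved include genes that fall in senescent cells: Hmgb2 rose by 0.64 ± 0.19, 1.37 ± 0.24, 1.32 ± 0.25 and 0.71 ± 0.22 in the authors' deposited tables. Lmnb1, Glb1 and the secretory genes below were named after their values were seen. Lmnb1, the lamin lost in senescence, rose by 0.87 ± 0.24 in fibrin and by 0.76 ± 0.25 in collagen I in the authors' deposited tables. Igfbp7, a secreted factor that rises with senescence, rose by 1.85 ± 0.23 in fibrin and 0.86 ± 0.21 in collagen I, and Plaur by 1.22 ± 0.24 there, in the authors' deposited tables. Glb1, which encodes the senescence-associated beta-galactosidase, fell by 0.69 in collagen I (adjusted p = 0.0314) in the authors' deposited table. Genes of the secretory phenotype differed widely in level: Il6 and Mmp3 had base means under 1 in the authors' deposited tables, while the chemokines Cxcl5, Cxcl1 and Ccl2 had implied levels of 3716, 5196 and 61.9 in 2D. Their base means were highest in the fibrin comparison, at 35587, 11979 and 491 in the authors' deposited table. None of the 3 chemokines passed in any comparison by the Wald test of DESeq2, and Cxcl5 in fibrin came nearest, with 1.05 ± 0.37 (adjusted p = 0.0557) in the authors' deposited table. At an unadjusted p under 0.05 Cxcl5 in fibrin was the 1 value of the 12. By the base means the level of Cxcl5 in fibrin was 68166, a far larger rise over 2D than its deposited log2 fold change of 1.05. The deposited fold change of Cxcl5 in fibrin was therefore not the ratio of the group means. Its lowest base mean in another comparison, 3480, bounds its level in 2D from above, so its mean reads in fibrin were far above 2D. How that rise was spread over the 3 libraries is not known. The 2D levels of these chemokines rest on deposited fold changes and are rough.

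For the 4 genes with a call, the genes nearest in pattern were taken as those with the smallest root mean square difference of the 4 log2 fold changes, among 11128 genes (11129 for Cdkn1c) whose base mean reached 100 in every table. For Ccnd1 these were Fancd2 (0.0472), Etv4 (0.0595) and Wdr76 (0.0621), for Ccnd3 Casp8 (0.0309), Mllt11 (0.0448) and Cnot6l (0.0468). For Ccnd2 they were Irs2 (0.0721), 3110043O21Rik (0.0995) and Clmp (0.101), and for Cdkn1c Hdc (0.0915), Mtus1 (0.141) and Fbxo36 (0.163). Irs2, the nearest to Ccnd2, had log2 fold changes of 0.04, -0.58, -0.38 and 0.30 in Matrigel, fibrin, collagen I and Printed in the authors' deposited tables. The likeness rests on 4 values that share the 2D libraries and is a description.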

How the data were processed

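Total RNA of 15 iREC cultures was sequenced, 3 libraries in each of 5 conditions. Per the submitters' processing notes, build mm10 was used with STAR 2.6.0b-1, reads were counted with featureCounts 1.6.3 and tested with DESeq2 1.22.1, and FastQC 0.72 and Trim Galore 0.4.3 are also named. Annotation, strand setting and design formula: not given in the sources used here. Per the file headers the 4 tables hold results of a Wald test for each microenvironment against 2D.

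As deposited, the base mean is a signal, an average over both groups of reads scaled by size factors. Fold changes and their standard errors were deposited on the log2 scale, with 2D as the denominator. The deposited Wald statistic is a score, the first over the second. The authors' p-value belongs to that score and is two-sided, and genes with few reads have no adjusted p-value. Fits could not be repeated without values per library.

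Computed here (Python 3.11.15, pandas 2.3.3, scipy 1.17.1) were the implied levels, the differences between microenvironments, list counts, motif matches and the alternatives. The difference test was run on simulated fold changes drawn independently, without the shared 2D libraries of the real ones. Implied levels were recovered from base means and fold changes built without noise by the same formula. That checks the code only, and not whether the formula holds for the deposited values. A gene was called where the adjusted p was under 0.05. Gene positions and lengths are from GENCODE M21 on GRCm38, and promoters from RefSeq on GRCm38.p6. Of 11175 genes whose base mean reached 100 in every comparison, a length was found for 11004.

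The 10 genes and the lists were chosen with earlier results of these data known. The rule for named genes took all 10, of each list the 3 genes with the largest absolute Wald statistic and those that act on 1 of the 10, and for each of the 10 with a call the 3 genes nearest in pattern. Alternatives were the null of the Wald statistic, the genes over which p was adjusted, recentring, and fold changes from base means. Markers of other cell types were read from the same tables.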

Additional observations from a re-analysis of the deposited data

How the results depend on the processing

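No paired analysis was possible because the tables hold no values per library, so a fit with the passage as a block and fits that leave out a library were not run. When the Wald statistics were centred and rescaled to the spread of all genes, the number of the 10 genes called was 0 in Matrigel (1 as deposited), 0 in fibrin (1) and 0 in collagen I (3). The adjusted p were then 0.240 for Ccnd1 in Matrigel, 0.253 for Ccnd2 in fibrin, and 0.253 for Cdkn1c, 0.471 for Ccnd1 and 0.685 for Ccnd3 in collagen I. Over all genes this rescaling left 373, 336, 146 and 270 calls in Matrigel, fibrin, collagen I and Printed, of 928, 1215, 1570 and 481. It turned the count for fibrin against Printed from 0 to 1, through Ccnd2 (difference -1.05, adjusted p = 0.0185). Over all genes it gave 300 calls for Matrigel and fibrin in place of 163, 236 for Matrigel and Printed in place of 89, and 526 for fibrin and collagen I in place of 77. Among genes whose base mean reached 100 in both tables fibrin and Printed gave 130 calls in place of 204, and fibrin and collagen I 45.

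The sign turned in 3 values close to 0: Cdkn1a in collagen I was -0.0015 when recentred, and with the rescaled statistic Cdkn2d differed by 0.018 between Matrigel and collagen I and Ccnd1 by -0.0085 between fibrin and Printed. The 3 calls in collagen I were 2 after recentring and after adjustment over all genes with a p-value, both without Ccnd3. They were also 2 over genes whose base mean reached 100, where Cdkn1c was not tested. All 40 fold changes from the base means lay within 1 standard error of the deposited ones. Depth per library was not analysed here; Cdkn1c had the lowest base means and the largest standard errors of the 10 genes.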
